A study of Mus musculus with 18 samples.

Results

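The genes described here encode extracellular matrix proteins and the enzymes that cross-link, cleave or protect them. They are 39 mouse genes taken from a list by symbol, 38 of which have a probe set on the array and were tested, out of 12393 genes with a probe set. Fbn1, the gene of fibrillin, was not analysed here. For the 25 genes with more than 1 probe set, the set of highest mean log2 signal was used, and 13 genes have 1 probe set. Of the 38 probe sets, 34 were called Present (detected above background) on all 16 arrays that carry detection calls. The other 4 were those of Col15a1, Lama1, Emilin3 and Mmp10.

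Expression was measured on Affymetrix arrays in the oviduct, uterus and vagina of newborn ICR mice. The mothers of the DES groups were injected daily with diethylstilbestrol (DES), a synthetic estrogen, at 67 µg per kg of their body weight, on fetal days 10 to 18. The mothers of the oil groups were injected with oil over the same days. The 6 groups were DES oviduct, DES uterus and DES vagina, and oil oviduct, oil uterus and oil vagina, with 3 arrays each, except for DES vagina, where 2 of the 3 are of the chip type used here. Per the labels the RNA came from 3 litters. The labels do not say whether array numbers stand for litters, so p-values measure the spread between these samples. Each sample is a whole organ, in which fewer cells of a type and less RNA per cell cannot be told apart.

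The matrix of a developing tube such as the Müllerian duct, which forms these organs, is made of a stroma and a basement membrane. The stroma holds fibrils of type I, III and V collagen, cross-linked by lysyl oxidase after lysyl hydroxylases have modified the chains. Type VI collagen filaments, small proteoglycans such as decorin and lumican, the large hyaluronan-binding proteoglycan versican and elastic fibres lie between the fibrils. The basement membrane under the epithelium and around muscle and vessels is a sheet of laminins, type IV collagen and nidogens. Metalloproteases cut these proteins and the TIMPs inhibit the proteases. Estrogen is known to change the stroma of the uterus, and the mesenchyme of the duct is known to instruct the epithelium during development.

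Signals in the text are scaled so that the trimmed mean of each array is 500, on a linear scale, and log2 changes are differences of log2(signal + 32) between group means. The DES against oil comparisons use 3 arrays against 3 in oviduct and uterus and 2 against 3 in the vagina. Without overlap means that all DES signals lay above, or all below, the oil signals of the organ. With so few arrays this can also happen for an unchanged gene, and its share over all genes was not computed. Before scaling, the trimmed mean signal was 26.5 to 143. Arrays 3 of every group were scanned on a later day than the 11 others and carry analysis names of 19 days post coitum, so that age and scan day cannot be told apart. The file deposited for oil oviduct array 1 is a copy of DES oviduct array 1, and its values were therefore taken from the series' value table. The settings file of DES oviduct array 3 names the vagina. Its signal was 4.2 for Hoxd13, a posterior patterning gene at 275 and 479 on the DES vagina arrays, and 4219 for the oviduct gene Ovgp1, at 142 and 129 on those arrays. Oil oviduct arrays 1 and 3 and oil uterus array 3 carried skeletal muscle transcripts (summed signal of 12 genes 4466, 11487 and 12838, against at most 1438 on the DES oviduct and uterus arrays).

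After DES, 22 of the 38 genes changed in the uterus, 13 higher and 9 lower, with an adjusted p (limma, Benjamini-Hochberg) below 0.05. In the oviduct 17 changed, 4 higher and 13 lower. In the vagina 11 changed, 7 higher and 4 lower. Of all 9526 genes tested by the same probe set rule, 9.95% were called in the uterus, 9.49% in the oviduct and 2.71% in the vagina. The members were chosen with earlier results of these data known. The shares of all genes, here and below, are therefore a description and no test of the members. Among the 5717 genes called Present on every array with calls, the shares were 10.3%, 9.52% and 2.64% in the same order. The median log2 change of the 38 genes was 0.17 in the uterus, -0.13 in the oviduct and 0.13 in the vagina, against -0.05, -0.06 and -0.02 over all genes. By direction, 5.66% of all genes rose and 4.29% fell in the uterus, 5.35% rose and 4.14% fell in the oviduct, and 1.92% rose and 0.787% fell in the vagina.

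Of the 38 genes, 27 were called in at least 1 organ. Over all genes, this share and those for calls in only 1 or 2 organs were not computed. Plod2, Lum and Smoc2 rose in all 3 organs, and Vcan, Emilin3, Tnc and Cpxm2 fell in all 3. Of all 9526 genes, 112 (1.18%) were called in the same direction in all 3 organs, given as description since the members were not chosen blind to these data. No member was called in opposite directions in 2 organs. A further 9 were called in 2 organs, 6 in oviduct and uterus and 3 in uterus and vagina. In 1 organ, 6 were called in the uterus, 4 in the oviduct and 1 in the vagina. The members that carry the rises are mainly collagens and their modifying enzymes. Those that carry the falls are mainly the elastic fibre members, versican, tenascin, Mmp2, Mmp10 and Cpxm2, as the map of log2 changes shows.

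**Figure D1:**
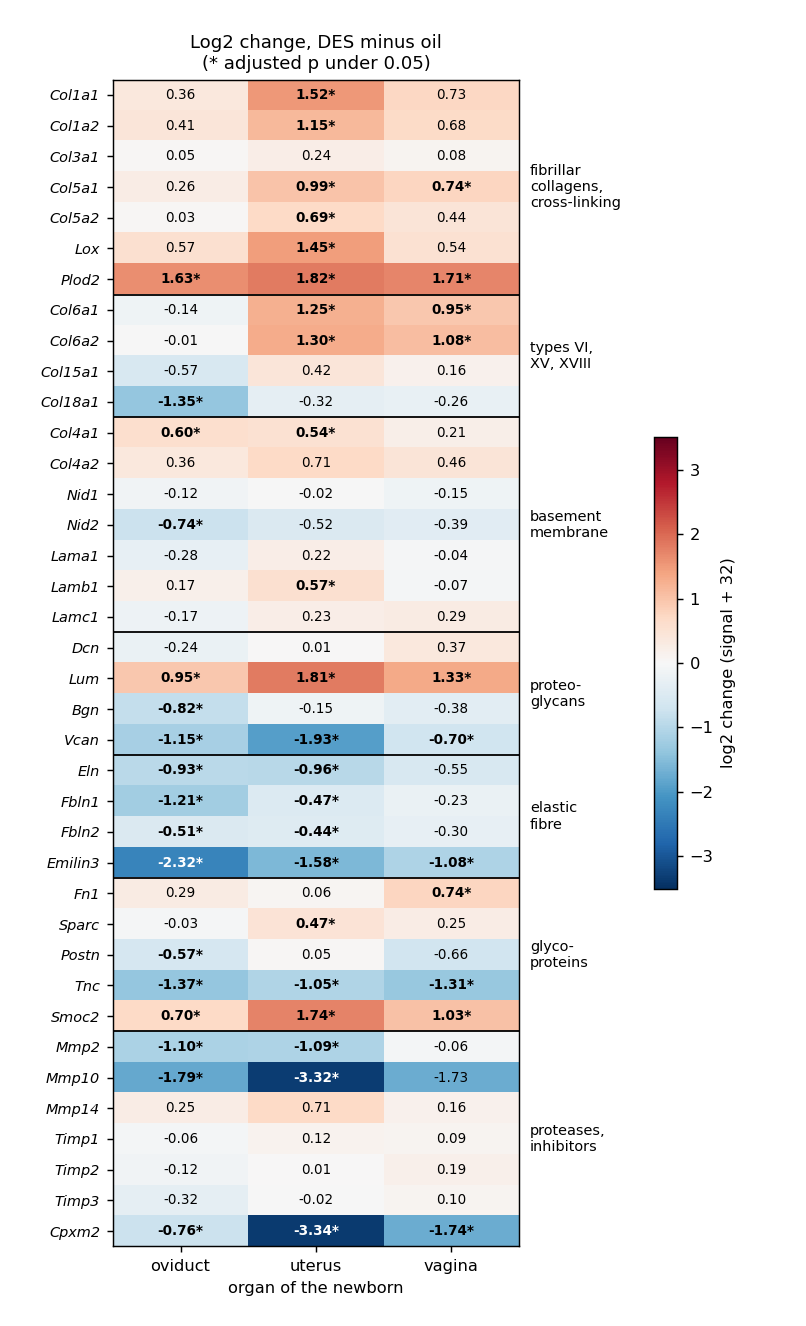
Log2 change, DES minus oil, of each of the 38 genes (rows, by class) in oviduct, uterus and vagina (columns), on the log2(signal + 32) scale; an asterisk marks an adjusted p below 0.05. The fibrillar collagen block is red in the uterus column, where 6 of 7 genes passed the test, and the elastic fibre block is blue in the oviduct and uterus columns, where 4 of 4 passed.

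With scan day as a block, 25 members were called in the uterus, 20 in the oviduct and 17 in the vagina, where the replicate block gave 16. No share of all genes called was computed for the blocks or the subsets of arrays, here and below. Whether these counts are particular to the members was therefore not tested. Within the first scan day the counts were 24, 19 and 14, with a lone DES vagina array to which the spread of the other groups was applied. The second day has 1 array per group and no test. Its difference had the sign of the full fit for all 22, 17 and 11 members called. Its arrays are part of the full fit that chose these members, so this is no independent check. In the oviduct, leaving out the 3 oil arrays with skeletal muscle transcripts left 9 members called and 1 oil oviduct array. The calls of Col4a1, Nid2, Lum, Eln, Fbln2, Smoc2, Mmp10 and Cpxm2 were those lost there, at adjusted p of 0.0986 to 0.348. Their log2 changes without these arrays were 0.37, -0.58, 0.72, -0.95, -0.50, 0.67, -2.27 and -0.86 in that order, against 0.60, -0.74, 0.95, -0.93, -0.51, 0.70, -1.79 and -0.76 with them. Without DES oviduct array 2, 11 members were called in the oviduct. Without the pair of oviduct arrays with conflicting records (DES array 3 and oil array 1), an alternative chosen after seeing the data, the number was 11. Without DES vagina array 3, 4 were called in the vagina, and without DES vagina array 2, 7.

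Most members of the class of fibrillar collagen and its cross-linking rose in the DES uterus. Of the 7, 6 rose and none fell there, 1 rose in the oviduct and 2 rose in the vagina. Of 15 collagens tested outside the members, 2 rose and 1 fell in the uterus, 4 fell in the oviduct and 2 rose in the vagina. Of 14 other collagen-modifying enzymes, 3 rose and 1 fell in the uterus, 1 fell in the oviduct and 1 rose in the vagina. Col1a1 and Col1a2 encode the chains of type I collagen, the main fibril of stroma. Col1a1 had 14579.8, 19406 and 19989 on the DES uterus arrays, against 4959, 5135 and 9238 on the oil uterus arrays (log2 change 1.52 ± 0.26 (SE), adjusted p = 0.000995). The DES uterus arrays lay above every oil uterus array, and oil uterus array 3 stood above the other two oil arrays. Col1a2 had 29780.5, 31999 and 31266 on the DES uterus arrays, against 13034, 12464 and 16895 on the oil uterus arrays (log2 change 1.15 ± 0.17 (SE), adjusted p = 0.000353). In the vagina Col1a2 had 29326 and 33554 on the DES vagina arrays, against 17456, 17785 and 24175 on the oil vagina arrays, with no overlap between the groups (log2 change 0.68, adjusted p = 0.101 and 0.0034 with scan day as a block). In the oviduct Col1a1 and Col1a2 had log2 changes of 0.36 and 0.41, with overlapping groups and adjusted p of 0.545 and 0.194. The scan day block gave adjusted p = 0.0118 for Col1a2 there. The other probe set of Col1a1 had a log2 change of 0.38 in the uterus (adjusted p = 0.769), so that the rise rests on the brighter set, while both probe sets of Col1a2 rose.

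Type V collagen starts fibrils and sets their width. Col5a1 had 7437, 7550.0 and 8609.9 on the DES uterus arrays, against 3356, 3838 and 4716 on the oil uterus arrays (log2 change 0.99 ± 0.16 (SE), adjusted p = 0.000722). In the vagina Col5a1 had 6066 and 6944 on the DES vagina arrays, against 3349, 3491 and 4934 on the oil vagina arrays (log2 change 0.74 ± 0.18 (SE), adjusted p = 0.044). That vaginal call was lost without DES oviduct arrays 1 or 2, DES uterus arrays 1 or 2, DES vagina arrays 2 or 3, oil oviduct arrays 1 or 2, oil uterus array 2 or oil vagina arrays 1 or 2, at an adjusted p of up to 0.316. For Col5a2 the signals were 7028, 7429.9 and 7223 on the DES uterus arrays, against 4345, 3922 and 5200.5 on the oil uterus arrays (log2 change 0.69 ± 0.13 (SE), adjusted p = 0.00213). Col3a1, the gene of type III collagen and the neighbour of Col5a2 on chromosome 1 with a gap of 24624 bases, did not pass the test in any organ. Its signals were 23850.0, 23833 and 22876 on the DES uterus arrays, against 19110.4, 19699 and 20858 on the oil uterus arrays, with a log2 change of 0.24 and a 95% interval of 0.01 to 0.47. The interval was -0.18 to 0.28 in the oviduct and -0.18 to 0.34 in the vagina.

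Lysyl oxidase (Lox) makes the aldehydes from which collagen and elastin cross-links form, and Plod2 is the lysyl hydroxylase of the collagen telopeptides. Lox had 6113, 5968 and 9549 on the DES uterus arrays, against 2448, 2258 and 3017 on the oil uterus arrays (log2 change 1.45 ± 0.26 (SE), adjusted p = 0.00131). In the oviduct Lox had 4344, 4559 and 6556 on the DES oviduct arrays, against 3156, 3112 and 3982 on the oil oviduct arrays, also without overlap (log2 change 0.57, adjusted p = 0.229 and 0.00459 with scan day as a block). Plod2 rose in every organ. It had 3039, 2558 and 2989 on the DES oviduct arrays, against 924, 818 and 972 on the oil oviduct arrays (log2 change 1.63 ± 0.21 (SE), adjusted p = 8.48e-05). In the uterus Plod2 had 3547, 3184 and 2339 on the DES uterus arrays, against 814, 792 and 854 on the oil uterus arrays (log2 change 1.82 ± 0.21 (SE), adjusted p = 2.44e-05). In the vagina Plod2 had 2657 and 2354 on the DES vagina arrays, against 570.3, 607 and 1166 on the oil vagina arrays (log2 change 1.71 ± 0.24 (SE), adjusted p = 0.000438). The lowest DES signal of Plod2 was above the highest oil signal in each organ, no array left out ended any of these calls, and its second probe set rose in each organ as well.

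**Figure D2:**
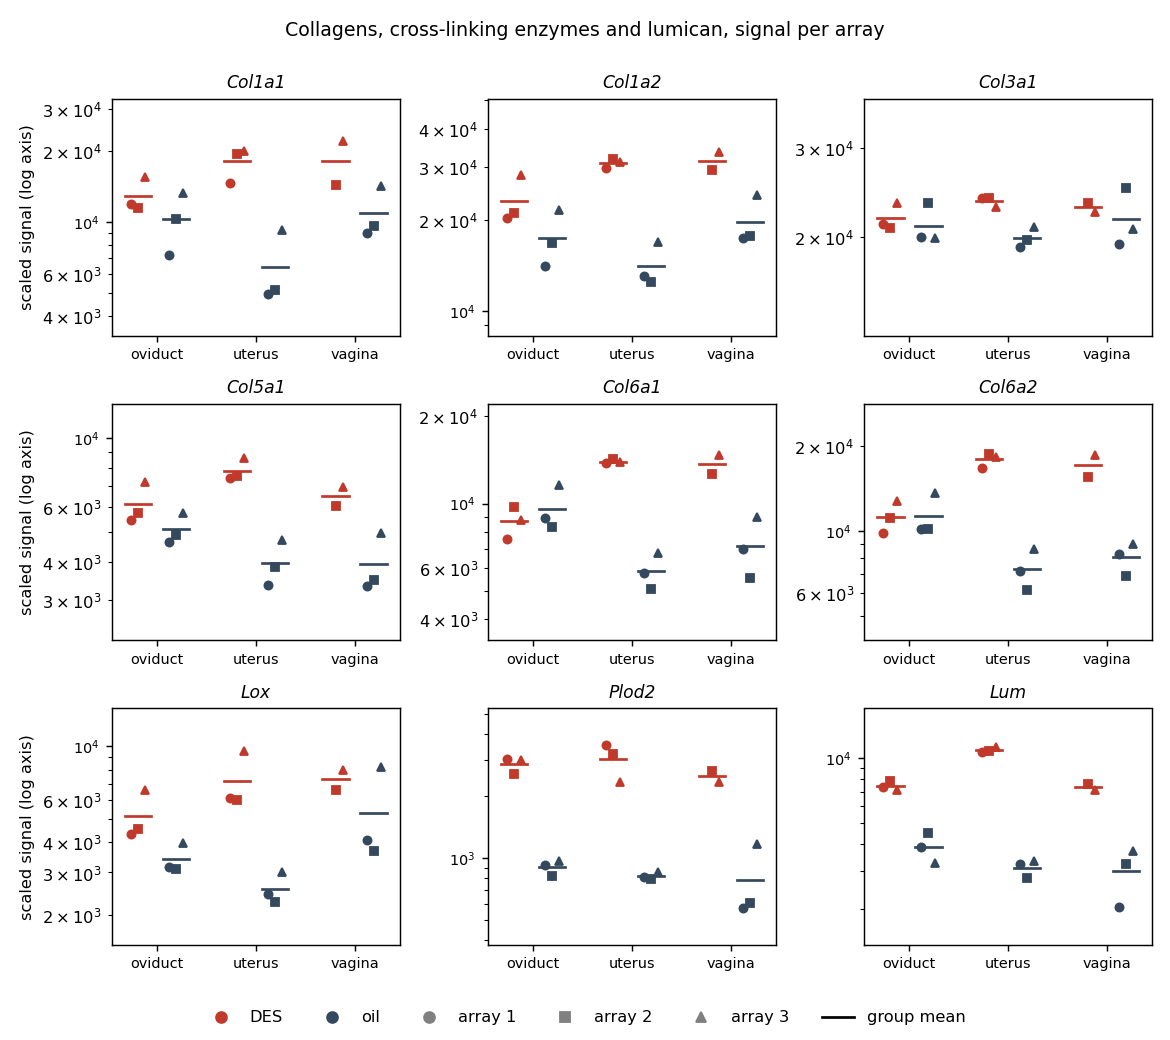
Scaled signal (log axis) per array of 9 genes of collagen, its cross-linking and lumican in the oviduct, uterus and vagina, DES arrays in red left of oil arrays in blue, with marker shape for the array number and a line for the group mean. In the uterus panels the DES arrays of Col1a1, Col5a1, Col6a1 and Lum lie above all oil arrays, whereas the oviduct groups of Col6a1 overlap.

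Type VI collagen forms beaded filaments around cells. Col6a1 and Col6a2, which are 85161 bases apart on chromosome 10 with no protein-coding gene between them, rose in the uterus and in the vagina and did not pass the test in the oviduct. Col6a1 had 13743, 14183 and 13876 on the DES uterus arrays, against 5767, 5084 and 6762 on the oil uterus arrays (log2 change 1.25 ± 0.17 (SE), adjusted p = 0.00011). In the vagina Col6a1 had 12645 and 14672 on the DES vagina arrays, against 6956, 5538 and 9017 on the oil vagina arrays (log2 change 0.95 ± 0.19 (SE), adjusted p = 0.0108). In the oviduct Col6a1 had 7534, 9707 and 8804 on the DES oviduct arrays, against 8932, 8274 and 11612 on the oil oviduct arrays, and the groups overlapped (log2 change -0.14, 95% interval -0.50 to 0.22). Col6a2 had 16670.2, 18762 and 18245 on the DES uterus arrays, against 7208, 6141 and 8632 on the oil uterus arrays (log2 change 1.30 ± 0.15 (SE), adjusted p = 3.33e-05). In the vagina Col6a2 had 15435 and 18618 on the DES vagina arrays, against 8238, 6932 and 8982 on the oil vagina arrays (log2 change 1.08 ± 0.17 (SE), adjusted p = 0.00184). In the oviduct the log2 change of Col6a2 was -0.01 with an interval of -0.33 to 0.32. The vaginal calls depended on the arrays. That of Col6a1 was lost without DES vagina arrays 2 or 3 or oil vagina array 2 (adjusted p up to 0.149) and that of Col6a2 without DES vagina array 3 (adjusted p = 0.055).

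The 250 bases before the start of these neighbouring genes and of Col1a2 are shown because they are collagen genes that moved together in the uterus. The sequences are from RefSeq on GRCm38.p6, on the strand of the gene and ending at the base before the start that lies farthest upstream in the table of promoters. Capitals mark matches to any of 5 motifs: the AP-1 site TGANTCA, the estrogen response element (GGTCA, any NNN, then TGACC), the GC box GGGCGG, the TATA box TATAAA and the CCAAT box CCAAT, searched on both strands. No 2 of the matches shown overlap.
Col6a1 (chr10:76726045-76726294, minus strand): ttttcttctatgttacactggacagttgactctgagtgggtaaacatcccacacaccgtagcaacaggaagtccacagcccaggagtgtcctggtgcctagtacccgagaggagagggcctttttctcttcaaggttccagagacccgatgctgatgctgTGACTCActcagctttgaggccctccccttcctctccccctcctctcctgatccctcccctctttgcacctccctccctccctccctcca
Col6a2 (chr10:76623631-76623880, minus strand): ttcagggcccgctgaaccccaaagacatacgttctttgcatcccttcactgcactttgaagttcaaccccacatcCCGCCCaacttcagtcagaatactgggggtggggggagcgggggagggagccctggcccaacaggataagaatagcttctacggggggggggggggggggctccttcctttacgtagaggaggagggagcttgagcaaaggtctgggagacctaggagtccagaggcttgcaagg
Col1a2 (chr6:4505368-4505617, plus strand): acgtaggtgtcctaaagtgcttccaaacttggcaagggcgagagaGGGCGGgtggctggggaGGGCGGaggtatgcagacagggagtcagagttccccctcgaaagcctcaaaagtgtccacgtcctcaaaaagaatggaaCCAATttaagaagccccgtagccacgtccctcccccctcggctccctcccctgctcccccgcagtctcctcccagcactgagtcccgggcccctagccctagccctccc
Col6a1 held an AP-1 match 90 to 84 bases upstream and none of the other motifs. Col6a2 held a GC box 175 to 170 bases upstream. Col1a2 held GC boxes 205 to 200 and 188 to 183 bases upstream and a CCAAT box at 109 to 105. Windows were found for 24 of the 38 genes. The AP-1 motif was in 2 of these 24 and in 6.75% of 32851 windows of the same length, the GC box in 16 of 24 and 32.7%, the CCAAT box in 10 of 24 and 33.8%, and the TATA box in 3 of 24 and 12.4%. The full estrogen response element was in none of the 24, in windows of which 0.0639% hold it. A match or its absence describes these letters in these windows and nothing about a factor.

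Types XV and XVIII collagen are basement membrane zone proteins, and type XVIII carries the fragment endostatin. Col18a1 fell in the DES oviduct. It had 1033, 729 and 1179 on the DES oviduct arrays, against 2283, 2730.3 and 2534 on the oil oviduct arrays (log2 change -1.35 ± 0.19 (SE), adjusted p = 0.00013). With no overlap in the uterus either, Col18a1 had 761, 947 and 953 on the DES uterus arrays, against 1112, 1021 and 1204 on the oil uterus arrays (log2 change -0.32, adjusted p = 0.375). In the vagina its log2 change was -0.26 (adjusted p = 0.746). Col15a1 had 379, 324 and 300.3 on the DES oviduct arrays, against 525, 606 and 415 on the oil oviduct arrays, apart in signal (log2 change -0.57, adjusted p = 0.144), and its calls were Absent on 2 of the 3 oil uterus arrays.

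Among the 7 basement membrane genes, 1 rose and 1 fell in the oviduct and 2 rose in the uterus. By the brightest probe set of each gene, none was called in the vagina and none had an unadjusted p below 0.05 there. Col4a1 and Col4a2, whose annotated spans on chromosome 8 overlap by 85 bases, encode the chains of the type IV network. Col4a1 had 4428, 4215 and 4651 on the DES oviduct arrays, against 2763, 3421 and 2622 on the oil oviduct arrays (log2 change 0.60 ± 0.13 (SE), adjusted p = 0.00552). In the uterus Col4a1 had 5212, 5007 and 5513 on the DES uterus arrays, against 3574, 3497 and 3707 on the oil uterus arrays (log2 change 0.54 ± 0.13 (SE), adjusted p = 0.0104). DES signals were above oil signals in both organs without overlap. In the oviduct, its second probe set had a log2 change of 0.45 (adjusted p = 0.0549), and the call was lost without oviduct array 1 of both treatments (adjusted p = 0.0828). Col4a2 had a log2 change of 0.71 in the uterus (adjusted p = 0.214 and 0.00105 with scan day as a block).

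Of the laminin chains and the nidogens, which tie the laminin and collagen IV sheets together, 1 rose in the uterus and 1 fell in the oviduct. Lamb1 had 2353, 2141 and 2008 on the DES uterus arrays, against 1359, 1436 and 1559 on the oil uterus arrays (log2 change 0.57 ± 0.11 (SE), adjusted p = 0.00293). Its other two probe sets had log2 changes of 0.49 and 0.59 in the uterus, with adjusted p of 0.124 and 0.124. Nid2 had 953, 963 and 1363 on the DES oviduct arrays, against 1533, 1628 and 2446 on the oil oviduct arrays (log2 change -0.74 ± 0.20 (SE), adjusted p = 0.0293). That call was lost without DES oviduct arrays 1 or 2 or oil oviduct array 3 (adjusted p up to 0.137). In the uterus Nid2 had 526, 650.5 and 869 on the DES uterus arrays, against 902, 938 and 1074 on the oil uterus arrays, lower without overlap (log2 change -0.52, adjusted p = 0.143 and 0.0267 with scan day as a block). Nid1, Lama1 and Lamc1 were not called in any organ. Their log2 changes ran from -0.28 for Lama1 in the oviduct to 0.29 for Lamc1 in the vagina, and Lama1 was called Present on 9 of 16 arrays.

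The small and large proteoglycans changed in different directions. Lumican (Lum), which binds collagen fibrils and limits their width, rose in all organs. It had 7402, 7814 and 7161 on the DES oviduct arrays, against 3884, 4509 and 3266 on the oil oviduct arrays (log2 change 0.95 ± 0.17 (SE), adjusted p = 0.00166). In the uterus Lum had 10724, 10808 and 11337 on the DES uterus arrays, against 3226, 2789 and 3338 on the oil uterus arrays (log2 change 1.81 ± 0.17 (SE), adjusted p = 2.85e-06). In the vagina Lum had 7629 and 7102 on the DES vagina arrays, against 2052, 3253 and 3702 on the oil vagina arrays (log2 change 1.33 ± 0.19 (SE), adjusted p = 0.000687). The groups did not overlap in any organ. Decorin (Dcn), the related proteoglycan whose gene lies 47337 bases from Lum on chromosome 10 with no gene between them, was not called. Dcn had 14279.8, 15138 and 12878 on the DES uterus arrays, against 13198, 14759 and 13865 on the oil uterus arrays (log2 change 0.01, 95% interval -0.28 to 0.31). In the oviduct Dcn was lower without overlap (log2 change -0.24, adjusted p = 0.386), and in the vagina higher without overlap (0.37, adjusted p = 0.339). Biglycan (Bgn), also a fibril-binding proteoglycan, had 4412, 4737 and 4857 on the DES oviduct arrays, against 7488, 8173 and 9221 on the oil oviduct arrays (log2 change -0.82 ± 0.11 (SE), adjusted p = 8.65e-05). All 3 probe sets of Bgn fell in the oviduct. In the uterus its log2 change was -0.15 (adjusted p = 0.496) and in the vagina -0.38 (adjusted p = 0.153 and 0.0413 with scan day as a block).

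Versican (Vcan), the hyaluronan-binding proteoglycan of loose embryonic mesenchyme, fell in every organ. It had 1712, 1707 and 1880.4 on the DES uterus arrays, against 6631, 6332 and 7518 on the oil uterus arrays (log2 change -1.93 ± 0.11 (SE), adjusted p = 7.81e-09). In the oviduct Vcan had 1318, 1462 and 1497 on the DES oviduct arrays, against 3369, 3058 and 3202 on the oil oviduct arrays (log2 change -1.15 ± 0.11 (SE), adjusted p = 3.4e-06). In the vagina Vcan had 1633 and 1458 on the DES vagina arrays, against 2424, 2607 and 2551 on the oil vagina arrays (log2 change -0.70 ± 0.12 (SE), adjusted p = 0.00364). The oil uterus arrays stood above the other two oil organs, while the DES arrays of the 3 organs lay between 1318 and 1880.4. The vaginal call was lost without DES vagina array 3 (adjusted p = 0.0817). Both dimmer probe sets fell in the uterus as well, by log2 changes of -1.98 and -2.42.

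All 4 measured members of the elastic fibre class fell in the oviduct and in the uterus, and 1 fell in the vagina. Elastic fibre genes outside the members did not share this. Of 13 tested, 1 rose and 3 fell in the oviduct, 1 rose and 1 fell in the uterus, and none was called in the vagina. Elastin (Eln) is the core of the fibre. It had 1108, 1102 and 1114 on the DES oviduct arrays, against 1906, 2167 and 2395 on the oil oviduct arrays (log2 change -0.93 ± 0.23 (SE), adjusted p = 0.0158). In the uterus Eln had 671, 1086 and 1165 on the DES uterus arrays, against 2101, 1765 and 1787 on the oil uterus arrays (log2 change -0.96 ± 0.23 (SE), adjusted p = 0.012). In the vagina Eln had 1539.5 and 1996 on the DES vagina arrays, against 2039.9, 2124 and 3968 on the oil vagina arrays without overlap (log2 change -0.55, adjusted p = 0.411). The oviduct call was lost without DES oviduct arrays 1 or 2 or oil oviduct arrays 2 or 3 (adjusted p up to 0.0613), and the uterine one without DES uterus array 1 or oil uterus array 1 (up to 0.0784).

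The fibulins bind elastin and basement membrane proteins. Fbln1 had 1288, 1569 and 1659 on the DES oviduct arrays, against 3453, 3079 and 4034 on the oil oviduct arrays (log2 change -1.21 ± 0.14 (SE), adjusted p = 2.22e-05). In the uterus Fbln1 had 2179, 2680.1 and 2732 on the DES uterus arrays, against 3253, 3311 and 3948 on the oil uterus arrays (log2 change -0.47 ± 0.14 (SE), adjusted p = 0.0461). The uterine call was lost without DES oviduct array 2, DES uterus arrays 1 or 2, DES vagina arrays 2 or 3, oil oviduct array 1, oil uterus arrays 1, 2 or 3 or oil vagina arrays 1 or 2 (adjusted p up to 0.2), and the second probe set had a log2 change of -0.12 there. Fbln2 had 1168, 1056 and 1165 on the DES oviduct arrays, against 1480.2, 1612 and 1786 on the oil oviduct arrays (log2 change -0.51 ± 0.12 (SE), adjusted p = 0.0131). In the uterus Fbln2 had 962, 916 and 842 on the DES uterus arrays, against 1296, 1184 and 1236 on the oil uterus arrays (log2 change -0.44 ± 0.12 (SE), adjusted p = 0.0313). The oviduct call was lost without DES oviduct array 2 or oil oviduct array 3 (adjusted p up to 0.0636), and the uterine one without DES uterus arrays 1, 2 or 3 or oil uterus arrays 1, 2 or 3 (up to 0.117).

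Emilin3, of a family of proteins at the border of elastin and microfibrils, fell in all organs. It had 181, 167 and 276 on the DES oviduct arrays, against 1089.5, 1065 and 1283 on the oil oviduct arrays (log2 change -2.32 ± 0.20 (SE), adjusted p = 1.88e-06). In the uterus Emilin3 had 319, 527 and 505 on the DES uterus arrays, against 1617, 1171 and 1395 on the oil uterus arrays (log2 change -1.58 ± 0.20 (SE), adjusted p = 6.75e-05). In the vagina Emilin3 had 517 and 593 on the DES vagina arrays, against 1335, 1072 and 1222 on the oil vagina arrays (log2 change -1.08 ± 0.23 (SE), adjusted p = 0.0155). It was called Absent on DES oviduct array 1. The oviduct and uterine calls held whichever array was left out, and the vaginal one was lost without DES vagina arrays 2 or 3 or oil vagina array 1 (adjusted p up to 0.202).

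Tenascin C (Tnc), an anti-adhesive glycoprotein of mesenchyme beside growing epithelia, fell in all organs. It had 138, 184 and 328 on the DES oviduct arrays, against 460.5, 684 and 612 on the oil oviduct arrays (log2 change -1.37 ± 0.26 (SE), adjusted p = 0.0026). In the uterus Tnc had 223, 223 and 196 on the DES uterus arrays, against 453, 555 and 434 on the oil uterus arrays (log2 change -1.05 ± 0.26 (SE), adjusted p = 0.0159). In the vagina Tnc had 640.5 and 1063 on the DES vagina arrays, against 1792, 1860.3 and 2788 on the oil vagina arrays (log2 change -1.31 ± 0.29 (SE), adjusted p = 0.0214). The uterine call was lost without oil uterus array 2 (adjusted p = 0.0777) and the vaginal one without DES vagina array 2 or oil vagina array 3 (up to 0.389). Smoc2, a calcium-binding matrix protein related to SPARC, rose in all organs. It had 2555, 2798 and 2468 on the DES uterus arrays, against 617, 791 and 883 on the oil uterus arrays (log2 change 1.74 ± 0.16 (SE), adjusted p = 2.24e-06). In the oviduct Smoc2 had 1329.5, 1772 and 1347 on the DES oviduct arrays, against 853, 913 and 922 on the oil oviduct arrays (log2 change 0.70 ± 0.16 (SE), adjusted p = 0.0112). In the vagina Smoc2 had 2957 and 3294 on the DES vagina arrays, against 1290.0, 1434 and 1853 on the oil vagina arrays (log2 change 1.03 ± 0.18 (SE), adjusted p = 0.00357). The uterine arrays stood farthest apart. The oviduct call was lost without DES oviduct array 2 (adjusted p = 0.0714), the vaginal one without DES vagina array 3 (adjusted p = 0.069), and the second probe set of Smoc2 passed in the uterus, at 1.26, and in neither other organ.

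Fibronectin (Fn1), which binds integrins and collagens, had 8176 and 10660.2 on the DES vagina arrays, against 4729.7, 5230.4 and 6963 on the oil vagina arrays (log2 change 0.74 ± 0.18 (SE), adjusted p = 0.0396). It was not called in the oviduct or uterus. The call was lost without DES oviduct array 2, DES uterus arrays 1 or 2, DES vagina arrays 2 or 3, oil oviduct array 2, oil uterus array 1 or oil vagina arrays 1 or 2 (adjusted p up to 0.393), and the second probe set had a log2 change of 0.43 in the vagina (adjusted p = 0.57). Sparc, a collagen-binding glycoprotein, had 21824, 22584 and 20813 on the DES uterus arrays, against 14570.0, 14975 and 17642 on the oil uterus arrays (log2 change 0.47 ± 0.13 (SE), adjusted p = 0.0337). That call was lost without DES uterus arrays 1 or 2 or oil uterus arrays 1 or 2 (adjusted p up to 0.138), while the second probe set also rose, by 0.70. Periostin (Postn), which binds collagen and tenascin, had 4357, 4387 and 4064 on the DES oviduct arrays, against 6615, 7105 and 5496 on the oil oviduct arrays (log2 change -0.57 ± 0.15 (SE), adjusted p = 0.0267), a call lost without DES oviduct arrays 1, 2 or 3 or oil oviduct arrays 1 or 2 (adjusted p up to 0.121). In the vagina Postn had 3504 and 3249 on the DES vagina arrays, against 4595, 5556 and 5977 on the oil vagina arrays without overlap (log2 change -0.66, adjusted p = 0.0566 and 0.0152 with scan day as a block). In the uterus its log2 change was 0.05.

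**Figure D3:**
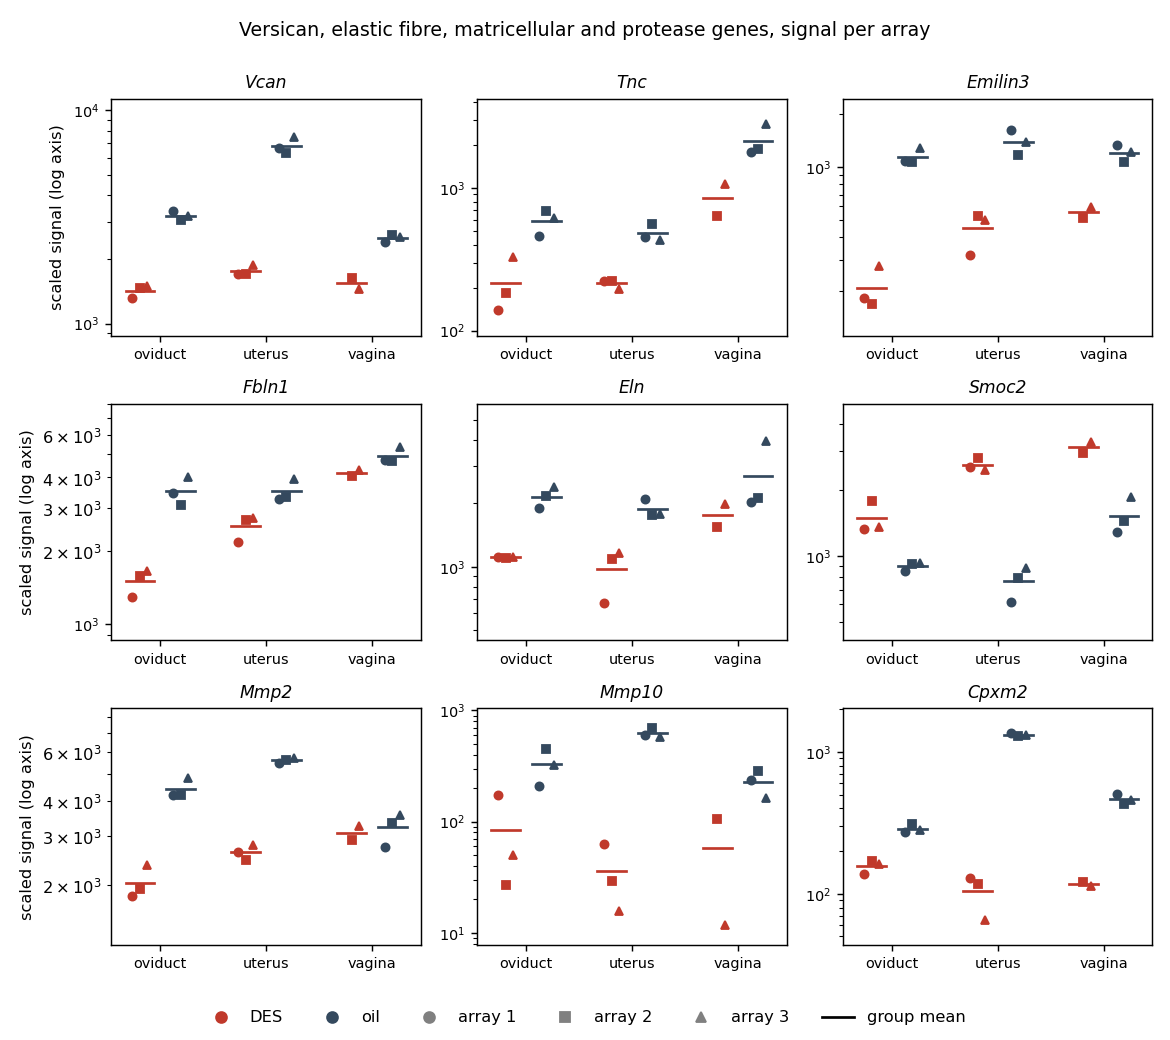
Scaled signal (log axis) per array of versican, tenascin C, elastic fibre genes, Smoc2, metalloproteases and Cpxm2 in the oviduct, uterus and vagina, DES arrays in red left of oil arrays in blue, with marker shape for the array number and a line for the group mean. The oil uterus arrays of Cpxm2 and Vcan stand above the oil arrays of the other organs, and the DES arrays of both genes lie below all oil arrays in every organ.

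Of the 7 proteases, protease-like proteins and inhibitors, 3 fell in the oviduct, 3 fell in the uterus and 1 fell in the vagina, and none rose. Outside the members, 26 other proteases and inhibitors were tested. Of these, 2 rose and 3 fell in the oviduct, 3 rose in the uterus and 2 rose in the vagina, where as in the uterus none fell. Mmp2, the gelatinase that cuts denatured collagen and type IV collagen, had 1835, 1932 and 2355 on the DES oviduct arrays, against 4199, 4186 and 4825 on the oil oviduct arrays (log2 change -1.10 ± 0.13 (SE), adjusted p = 2.22e-05). In the uterus Mmp2 had 2636, 2456 and 2778 on the DES uterus arrays, against 5481, 5606 and 5709 on the oil uterus arrays (log2 change -1.09 ± 0.13 (SE), adjusted p = 2.47e-05). In the vagina Mmp2 had 2890.5 and 3245 on the DES vagina arrays, against 2746, 3332 and 3566 on the oil vagina arrays, with overlapping groups (log2 change -0.06, 95% interval -0.36 to 0.24). Both probe sets of Mmp2 had the same pattern. Mmp14, the membrane protease that activates the Mmp2 proenzyme, had 2037, 2569 and 3116 on the DES uterus arrays, against 1386, 1360.4 and 1943 on the oil uterus arrays (log2 change 0.71, adjusted p = 0.0635 and 0.000131 with scan day as a block). Mmp10, a stromelysin with a broad range of matrix targets, was called Absent on all 8 DES arrays and Present on all 8 oil arrays with calls. It had 63.5, 29.3 and 15.7 on the DES uterus arrays, against 600.0, 694 and 572 on the oil uterus arrays (log2 change -3.32, adjusted p = 0.000116). In the oviduct Mmp10 had 173, 27.1 and 50.3 on the DES oviduct arrays, against 208, 451 and 321 on the oil oviduct arrays (log2 change -1.79, adjusted p = 0.0201). In the vagina Mmp10 had 105 and 11.7 on the DES vagina arrays, against 238, 286 and 163 on the oil vagina arrays, apart in calls and without overlap but not past the threshold (adjusted p = 0.109 and 0.0315 with scan day as a block). A bound on a fold sets each array of an Absent group at the gene's signal or the array's lowest Present signal, whichever is higher. The scale is log2(signal + 32). For Mmp10 the gene's signal was the higher on every DES array, so that the fitted changes are given and no bound. The oviduct call was lost without DES oviduct arrays 2 or 3 or oil oviduct arrays 2 or 3 (adjusted p up to 0.109). It was also lost with a pseudocount of 1 (adjusted p = 0.0609).

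Cpxm2, a secreted carboxypeptidase-like protein, fell in every organ. It had 129, 117 and 65.5 on the DES uterus arrays, against 1347, 1287 and 1306 on the oil uterus arrays (log2 change -3.34 ± 0.19 (SE), adjusted p = 7.81e-09). In the oviduct Cpxm2 had 137, 171 and 161 on the DES oviduct arrays, against 272, 309 and 281 on the oil oviduct arrays (log2 change -0.76 ± 0.19 (SE), adjusted p = 0.0187). In the vagina Cpxm2 had 120.1 and 113 on the DES vagina arrays, against 509, 428 and 459.9 on the oil vagina arrays (log2 change -1.74 ± 0.21 (SE), adjusted p = 0.000141). No DES array reached the lowest oil array of its organ. The oviduct call was lost without DES oviduct array 1 or oil oviduct array 2 (adjusted p up to 0.0887). The second probe set of Cpxm2 had log2 changes of -1.77 in the uterus, -0.96 in the oviduct and -1.36 in the vagina, and passed in the uterus. Timp1, Timp2 and Timp3, which inhibit metalloproteases, were called in no organ by the brightest probe set. In the oviduct, 4 genes of the protease and inhibitor class had an unadjusted p below 0.05, of which 3 were called. Their log2 changes ran from -0.32 for Timp3 in the oviduct to 0.19 for Timp2 in the vagina. The probe sets of Timp2 disagreed. The brightest had a log2 change of 0.01 in the uterus, with an interval of -0.46 to 0.48, and 2 dimmer ones rose there, by 0.58 (adjusted p = 0.0263) and 0.78 (adjusted p = 0.0392).

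The 250 bases before the starts of 3 of the genes that fell in the uterus are shown with the same motifs in capitals, because Mmp10 was called Absent on every DES array and Cpxm2 and Tnc fell in every organ.
Cpxm2 (chr7:132154742-132154991, minus strand): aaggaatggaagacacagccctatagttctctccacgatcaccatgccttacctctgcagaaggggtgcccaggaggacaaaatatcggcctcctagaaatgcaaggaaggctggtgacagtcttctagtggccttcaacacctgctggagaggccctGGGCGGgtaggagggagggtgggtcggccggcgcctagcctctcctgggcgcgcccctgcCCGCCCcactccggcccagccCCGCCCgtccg
Mmp10 (chr9:7502092-7502341, plus strand): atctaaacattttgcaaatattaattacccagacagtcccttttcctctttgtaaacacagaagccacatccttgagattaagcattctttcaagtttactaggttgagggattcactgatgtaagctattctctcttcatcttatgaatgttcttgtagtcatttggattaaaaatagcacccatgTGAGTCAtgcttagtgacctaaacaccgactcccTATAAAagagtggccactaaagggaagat
Tnc (chr4:64047016-64047265, minus strand): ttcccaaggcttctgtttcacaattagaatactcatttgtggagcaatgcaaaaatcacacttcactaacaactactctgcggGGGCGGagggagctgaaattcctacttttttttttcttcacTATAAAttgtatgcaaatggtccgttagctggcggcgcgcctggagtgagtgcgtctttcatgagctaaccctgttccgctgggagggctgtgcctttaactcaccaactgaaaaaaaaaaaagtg
Cpxm2 held GC boxes 92 to 87, 32 to 27 and 11 to 6 bases upstream and no TATA match. Its annotated gene span begins farther upstream than the tabled start, so that the last 24 bases of its window, with the GC box nearest the start, lie inside the span. Mmp10 held an AP-1 match 63 to 57 bases upstream and a TATA match 29 to 24 bases upstream. Tnc held a TATA match 126 to 121 and a GC box 167 to 162 bases upstream. The AP-1 motif stood before Mmp10, which fell in the uterus, and before Col6a1, which rose there.

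Between the oil organs, 9 members differed between oviduct and uterus, 9 between uterus and vagina and 6 between oviduct and vagina. Of all genes, 1.84%, 4.56% and 4.73% were called in the same order. The oil uterus had more Vcan and Cpxm2 and the oil vagina more Tnc than the organs they were set against. Cpxm2 had 272, 309 and 281 on the oil oviduct arrays, against 1347, 1287 and 1306 on the oil uterus arrays (log2 difference -2.08 ± 0.19 (SE), adjusted p = 1.22e-05). It was also higher in the oil uterus than in the oil vagina (1.44, adjusted p = 0.000206). The differences of Vcan were -1.08 for oviduct minus uterus and 1.42 for uterus minus vagina. Fn1 likewise was higher in the oil uterus than in the oviduct (-0.71, oviduct minus uterus) and than in the vagina (0.95, uterus minus vagina). Tnc had 453, 555 and 434 on the oil uterus arrays, against 1792, 1860.3 and 2788 on the oil vagina arrays (log2 difference -2.07, adjusted p = 0.000133). Against the vagina, Tnc was lower in the oil oviduct too (-1.81, adjusted p = 0.000337). Smoc2 was lower in the oil uterus (-0.97) and the oil oviduct (-0.73) than in the oil vagina.

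Of the 7 basement membrane genes, 3 were higher in the oil oviduct than in the oil uterus and none was lower. Against the oil vagina, 2 were higher in the oil oviduct and 1 was lower. Lama1, the alpha chain of the embryonic laminin, had 232, 246 and 263 on the oil oviduct arrays, against 83.3, 66.2 and 62.5 on the oil uterus arrays (log2 difference 1.45, adjusted p = 0.00541). Nid2 had 1533, 1628 and 2446 on the oil oviduct arrays, against 696, 658 and 593 on the oil vagina arrays (log2 difference 1.45, adjusted p = 0.000233). Against the oil uterus, the oil oviduct was also higher in Nid2 (0.89) and Lamc1 (0.62) and, among the other collagens, in Col18a1 (1.15), Col15a1 (0.97) and Col6a1 (0.70). The call of Col18a1 held whichever array was left out. That of Col6a1 (adjusted p = 0.0487) was lost without any 1 of 14 of the 17 arrays, those of Nid2 and Col15a1 without any 1 of 4, that of Lamc1 without any 1 of 3 and that of Fn1 without any 1 of 6. Against the oil vagina, the oil oviduct was higher in Col18a1 (1.20) and Lama1 (1.04) and lower in Col4a1 (-0.61). The call of Lama1 there was lost without any 1 of 5 arrays, that of Smoc2 without any 1 of 2, and the second probe set of Col4a1 gave -0.13 (adjusted p = 0.822). The oil uterus was lower than the oil vagina in Lox (-0.95), Lamb1 (-0.64) and Lamc1 (-0.67) and higher in Mmp2 (0.80). The call of Lox there (adjusted p = 0.0495) was lost without any 1 of 13 arrays. These comparisons share the oil arrays with each other and with the DES comparisons above. Cell type markers, described below, differed between the oil organs too. Of 10 epithelial genes, 6 were lower in the oil uterus than in the oil vagina, and 6 in the oil oviduct. Of 9 smooth muscle genes tested, 3 and 4 were lower in that order, and of 12 skeletal muscle genes 4 and 4. None of these genes was called higher there, and none was called between oviduct and uterus. Their part in the differences was not tested.

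Scan day as a block gave counts between oil organs of 17, 15 and 15, and with the replicate block 15, 15 and 14. Within the first scan day they were 14, 12 and 12. Leaving out the 3 oil arrays that carry muscle transcripts, they were 2 (Vcan and Cpxm2), 9 and 2 (Col18a1 and Nid2). The oil vagina arrays were kept in that fit, with skeletal muscle sums of 5075, 20388 and 17907, so the vagina side still carried these transcripts. The oviduct against uterus count was 4 without oil oviduct array 2, oil uterus array 1 or oil uterus array 2, and the oviduct against vagina count was 4 without oil oviduct array 1.

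The DES effect differed between organs for some members, by the test of the difference itself. Between uterus and oviduct 6 differed, against 1.75% of all genes. Between vagina and uterus 3 differed, against 0.315%, and between vagina and oviduct 4, against 1.7%. Type VI collagen stood apart by its higher effect in the uterus and vagina than in the oviduct. The difference, uterus minus oviduct, was 1.39 ± 0.24 (SE) for Col6a1 (adjusted p = 0.00616) and 1.30 ± 0.22 for Col6a2 (adjusted p = 0.0054). Vagina minus oviduct, it was 1.09 and 1.09 (adjusted p = 0.0438 and 0.026). Cpxm2 fell more in the uterus than in the oviduct, by -2.58 ± 0.27 (adjusted p = 0.000144), and its effect in the vagina minus that in the uterus was 1.60 (adjusted p = 0.0231). The second probe set of Cpxm2 gave -0.81 (adjusted p = 0.729) and 0.41 for these, neither past the threshold. Vcan also fell more in the uterus than in the oviduct, by -0.77 (adjusted p = 0.0167), and its effect in the vagina minus that in the uterus was 1.23 (adjusted p = 0.00198), while its second probe set passed for neither.

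Mmp2 fell in the oviduct and uterus and not past the threshold in the vagina, and the effect in the vagina differed from both, by 1.02 against the uterus (adjusted p = 0.0273) and 1.04 against the oviduct (adjusted p = 0.00871). Smoc2 rose more in the uterus than in the oviduct (1.05, adjusted p = 0.0281), the effect on Bgn was higher in the uterus than in the oviduct (0.67, adjusted p = 0.0344), and that on Fbln1 was higher in the vagina than in the oviduct (0.98, adjusted p = 0.0254). For the fibrillar collagens and cross-linking enzymes no difference between organs passed, although 5 of the 7 had an unadjusted p below 0.05 for uterus minus oviduct. The difference for Col1a1 was 1.17 with a 95% interval of 0.38 to 1.95 (adjusted p = 0.198 and 0.00126 with scan day as a block). Blocking on scan day gave 14, 6 and 6, and with the replicate block 14, 5 and 6. The members added for uterus minus oviduct by both blocks were Col1a1, Col1a2, Col5a1, Col5a2, Lox, Col18a1, Lum and Fbln1, each with a higher value in the uterus. Leaving out the same 3 oil arrays, the counts were 2 (Col6a2 and Cpxm2), 1 (Vcan) and 0, where 11 members had an unadjusted p below 0.05.

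**Figure D4:**
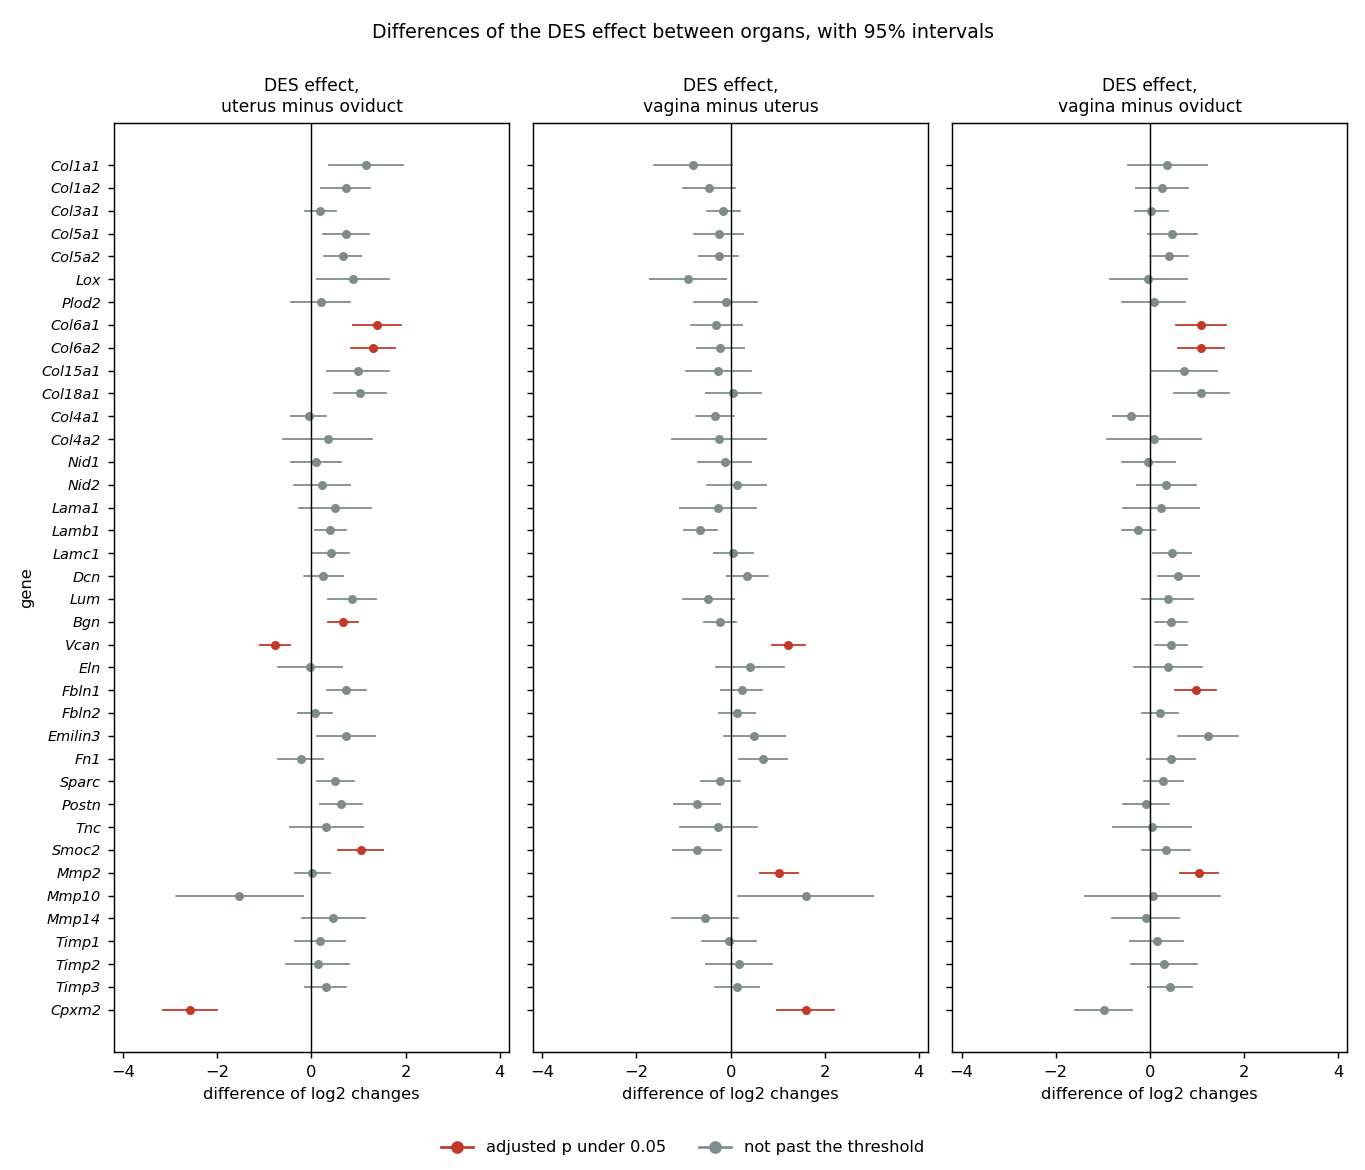
Difference of the DES effect between organs for each of the 38 genes, as a difference of log2 changes with its 95% interval, for uterus minus oviduct, vagina minus uterus and vagina minus oviduct (panels from left to right), with an adjusted p below 0.05 in red. Col6a1 and Col6a2 lie right of 0 in the left and right panels, and Cpxm2 lies left of 0 in the left panel, at -2.58, and right of 0 in the middle one.

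Other matrix genes, from a list of collagens, laminins, proteoglycans, glycoproteins, proteases and their inhibitors, were read beside the 38. Of 147 tested, 8 rose and 23 fell in the oviduct, 22 rose and 13 fell in the uterus, and 12 rose and 2 fell in the vagina. The shares called were 21.1%, 23.8% and 9.52%. Pcolce2, an enhancer of the proteinase that trims procollagen, rose in all organs and was called Absent on the oil arrays. It had 459.9, 278 and 642 on the DES uterus arrays, against 5.3, 79 and 16.2 on the oil uterus arrays and was at least 6.55-fold higher in DES uteri (adjusted p = 7.83e-05), at least 4.71-fold in the oviduct (adjusted p = 0.000292) and at least 5.35-fold in the vagina (adjusted p = 0.00112). Thbs4, a thrombospondin of muscle and tendon matrix, had 531, 685 and 865 on the DES uterus arrays, against 14.9, 20.9 and 58.1 on the oil uterus arrays. It was at least 9.88-fold higher in DES uteri (adjusted p = 8.34e-06). In the vagina its log2 change was 2.53 (adjusted p = 0.00219), with Absent calls on the oil vagina arrays. Smoc1, the relative of Smoc2, rose in the DES uterus (log2 change 2.54, adjusted p = 4.84e-05), with Absent calls on the oil uterus arrays. For Smoc1, and for Thbs4 in the vagina, every oil signal exceeded the array's lowest Present signal, so the fitted change is given. Tll1, a tolloid-like procollagen proteinase, rose in the oviduct (log2 change 2.16 ± 0.39 (SE), adjusted p = 0.00171), as did Spon1, a spondin (1.77, adjusted p = 0.000295). In the vagina the serine protease gene Htra1 rose (2.23, adjusted p = 3.98e-05). Genes are named for the organs where they were among the largest changes, and their signals could also stand apart in other organs. Smoc1 had 715.5 and 898 on the DES vagina arrays, against 243, 196 and 183 on the oil vagina arrays. Spon1 had 1003, 836 and 856 on the DES uterus arrays, against 375, 379 and 376 on the oil uterus arrays.

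The largest fitted fall of these genes in the oviduct was that of Tgfbi, a collagen-binding adhesion protein. Tgfbi had 2243, 2461 and 2814 on the DES oviduct arrays, against 7634, 7264 and 9167 on the oil oviduct arrays (log2 change -1.66 ± 0.18 (SE), adjusted p = 1.36e-05), and in the uterus 3138, 3393 and 5276 on the DES uterus arrays, against 10289, 10765 and 12171 on the oil uterus arrays (log2 change -1.52 ± 0.18 (SE), adjusted p = 3.11e-05). In the oviduct the hyaluronan synthase gene Has2 (-1.52, adjusted p = 0.00417) and Loxl1, a lysyl oxidase of elastic fibres (-1.48, adjusted p = 8.48e-05), fell. In the uterus Col13a1, a transmembrane collagen (-1.67, adjusted p = 0.0015), and Ccn3, a matricellular protein (-1.67, adjusted p = 6.08e-05), fell. In the vagina Ccn3 (-1.17, adjusted p = 0.0122) and Dpt, the collagen-binding dermatopontin (-1.11, adjusted p = 0.00277), fell. Here too signals could stand apart in other organs. Ccn3 had 143, 130.5 and 111 on the DES oviduct arrays, against 431, 324 and 325 on the oil oviduct arrays. Loxl1 had 1163, 1502 and 2026 on the DES uterus arrays, against 2913, 2732.5 and 2900 on the oil uterus arrays.

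Markers of other cell types moved with treatment in the same arrays. The summed signal of 10 epithelial genes, all Present on the 16 arrays with calls, was 25521 to 30719 on DES oviduct arrays against 13602 to 17048 on oil oviduct arrays, 26557 to 34484 against 14371 to 16627 in the uterus, and 31611 to 37480.0 against 22633 to 29966 in the vagina. Of the 10, 7 rose in the uterus, 6 in the oviduct and 2 in the vagina, and none fell. The sum of 10 mesenchyme genes was 23448 to 26588 on DES uterus arrays against 27969 to 29915 on oil uterus arrays, where 3 fell and 1 rose, 20830.0 to 25556 against 23021 to 27240.0 in the oviduct, where 1 rose, and 24696 to 28243 against 25046 to 29315 in the vagina. Smooth muscle genes, another source of matrix, had a sum of 36439 to 46510.0 on DES uterus arrays against 21737 to 22329 on oil uterus arrays, where 5 of 9 tested rose. It was 17577 to 20118 against 17737 to 24455 in the oviduct and 32700.0 to 37279 against 27066 to 41342 in the vagina. The collagen genes that rose in the uterus rose beside higher smooth muscle and epithelial sums and a lower mesenchyme sum. The 10 mesenchyme genes did not move together there, with 5 higher and 5 lower after DES. Twist2 rose (1.31), while Pdgfra, Thy1 and Tcf21 fell (-0.89, -1.48 and -1.04). Vim, the brightest of them, had a log2 change of 0.02. The part of these cell types in the results was not tested.

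Mesothelial genes (6) had a sum of 11997 to 14985 on DES vagina arrays against 4514 to 7626 on oil vagina arrays, 8626 to 12299 against 5825 to 7509 in the uterus and 7847 to 10010.0 against 9427 to 11780.0 in the oviduct. The 6 did not move together. In the uterus, Krt19, which the epithelial list holds too, and Krt7 rose, by log2 changes of 1.32 and 1.37, while Upk3b and Wt1 fell, by -1.69 and -0.97. In the oviduct Msln, Upk3b and Wt1 fell (-1.19, -1.69 and -1.44) and none rose, and in the vagina Krt19 and Krt7 rose (1.38 and 1.45). Macrophage and leukocyte genes (11) summed to 4922 to 6468 on DES arrays against 3642 to 4507 on oil arrays in the uterus. The sum was 5123 to 6001 against 3866 to 4377 in the vagina and 5582 to 6446 against 5709 to 6408 in the oviduct. Only Cd14 was called in the uterus (1.71) and only Lyz2 in the vagina (0.95), both higher. In the oviduct Cd14 rose (1.03) and Tyrobp fell (-0.60). Nerve and Schwann cell genes (8) summed to 1085 to 1328 on DES arrays against 3443 to 5857 on oil arrays in the oviduct. The sum was 1941 to 2242 against 1319 to 1785 in the uterus and 3029 to 3072 against 4000.0 to 5655 in the vagina. These genes did not move together either. In the uterus Ngfr rose (2.39) and Stmn2 fell (-1.99), and 5 of the 7 tested had a lower mean. In the oviduct Nefl, Nefm and Stmn2 fell, and in the vagina Ngfr rose. Skeletal muscle genes (12) summed to 22017 to 29289 on DES vagina arrays against 5075 to 20388 on oil vagina arrays, without overlap, and although all 12 had a higher mean after DES none was called or had an unadjusted p below 0.05. Their part in the vaginal results was not tested. Of 10 endothelial and pericyte genes, 1 fell in the oviduct. Of 9 cartilage and bone genes, Col2a1, Matn1, Col9a1 and the bone gene Ibsp were Absent on every array with calls, Matn3 was Present on 1, Acan and Sox9 on 4 each, Sp7 on 14 and Col11a1 on 16, and none of the 4 tested was called after DES. Also Absent on every array with calls were Sox10 among the nerve genes and Lmod1 among the smooth muscle genes.

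**Figure D5:**
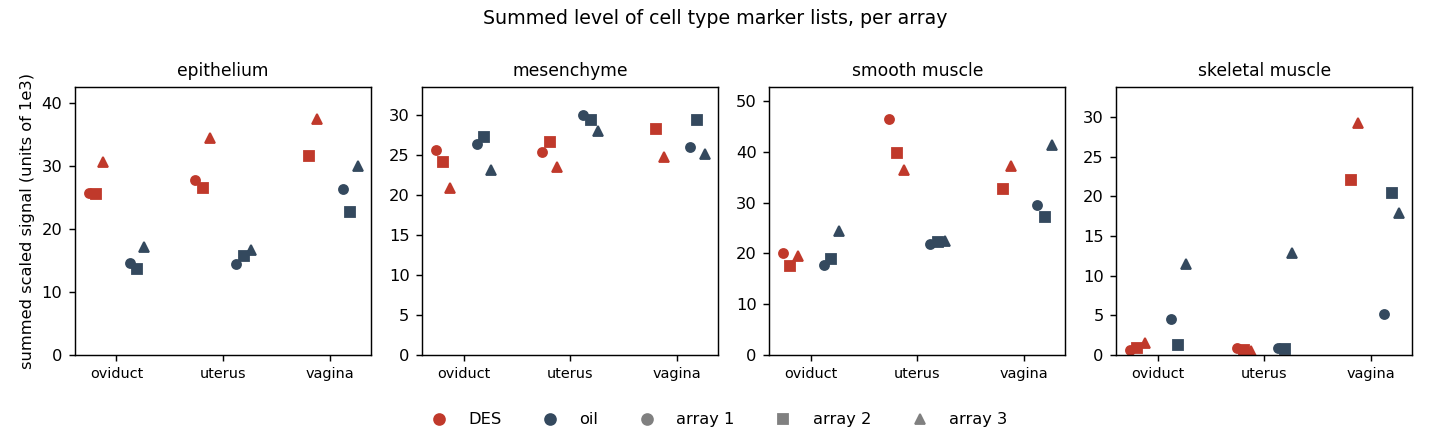
Summed scaled signal of the epithelium, mesenchyme, smooth muscle and skeletal muscle marker lists per array in oviduct, uterus and vagina, DES in red left of oil in blue, with marker shape for the array number. The DES uterus arrays lie above the oil uterus arrays for epithelium and smooth muscle and below them for mesenchyme, and 3 oil arrays of oviduct and uterus carry skeletal muscle signal above the DES arrays of those organs, whereas in the vagina both DES arrays lie above the oil arrays.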

How the data were processed

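The 18 samples were each hybridized to 1 Affymetrix array. The 17 MOE430A arrays entered the fit, and DES vagina array 1, which is of an older chip type, did not. The deposited files hold, per the file headers, a signal intensity, a detection call and a detection p-value for each probe set. How the authors scaled their signals, and with which software, is not given in the sources used here. After 64 controls were removed, 22626 probe sets remained, of which 20380 name 1 gene, 691 name several and 1555 name none. Intensities were scaled to a mean, trimmed by 2% at each end, of 500, and log2(signal + 32) was taken. Probe sets with a Present call on 2 arrays or more (16702) were fitted with limma 3.58.1 (R 4.3.3), 1 mean per group, variance trend, 11 residual and 5.81 prior degrees of freedom. Benjamini-Hochberg adjustment ran over these probe sets, contrast by contrast (threshold 0.05). Arrays limit the precision by their number. The procedure was run on simulated data with independent noise and no scan day effect, so that run does not give the error rates in these data.

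The members, lists and tests were chosen with earlier results of these data known. Values per array are given for members past the threshold in a DES contrast or a difference of DES effects, with the others by range and count. Of the other matrix genes, up to 3 of the largest rises and of the largest falls per DES contrast are named. A background share counts genes by 1 probe set each. A fold against a group with Absent calls throughout is given as a lower bound where an array's lowest Present signal exceeded the gene's signal. This was done only where every array of that group has calls. Otherwise the fitted log2 change is given.

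Deviations from the group means were correlated across probe sets between groups. Same-numbered DES and oil arrays had r of 0.174 to 0.588, but the median was 0.284 for the same number (n = 40 pairs), 0.233 for numbers 1 and 2 of the same scan day (n = 25) and -0.351 across scan days (n = 55), so that what the pairs share includes the scan day. Both blocks were fitted, as were other normalizations, filters, pseudocounts (1 and 100), probe sets and subsets of arrays.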

Additional observations from a re-analysis of the deposited data

Results flagged for a closer look

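The DES effect differed between organs, by the test of the difference (adjusted p below 0.05), for the following genes. Uterus minus oviduct, the difference of log2 changes was 1.39 for Col6a1 (DES against oil 1.25 in the uterus and -0.14 in the oviduct), 1.30 for Col6a2 (1.30 and -0.01) and 1.05 for Smoc2 (1.74 and 0.70). It was 0.67 for Bgn (-0.15 and -0.82), -0.77 for Vcan (-1.93 and -1.15) and -2.58 for Cpxm2 (-3.34 and -0.76). Vagina minus uterus, it was 1.23 for Vcan, 1.02 for Mmp2 and 1.60 for Cpxm2. Vagina minus oviduct, it was 1.09 for Col6a1, 1.09 for Col6a2, 0.98 for Fbln1 and 1.04 for Mmp2.

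These calls depended on the arrays to unequal extents. For uterus minus oviduct, those of Col6a1, Col6a2 and Cpxm2 held whichever array was left out, while those of Bgn (adjusted p up to 0.113) and Smoc2 (up to 0.0871) were lost without any 1 of 9 of the 17 arrays and that of Vcan without DES uterus array 2 (0.0512). On the second probe set the difference was -0.81 for Cpxm2 (adjusted p = 0.729), -0.93 for Vcan (0.432) and 0.92 for Smoc2 (0.314), none past the threshold. For vagina minus uterus, that of Vcan held, that of Mmp2 was lost without any 1 of 9 arrays (up to 0.206) and that of Cpxm2 without any 1 of 7 (up to 0.15), and the second probe sets of Vcan (1.43) and Cpxm2 (0.41) did not pass. For vagina minus oviduct, the call of Col6a1 was lost without any 1 of 13 arrays (up to 0.23), that of Col6a2 without any 1 of 6 (up to 0.178), that of Fbln1 without any 1 of 7 (up to 0.141) and on its second probe set (0.38) and that of Mmp2 without DES vagina array 3 (0.0765).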

How the results depend on the processing

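No log2 change of a called member reversed under any alternative. Of the 87 member calls over the 9 comparisons, the replicate block and the scan day block ended none, quantile normalization 1, a pseudocount of 1 ended 5, no filter on calls 10, the first scan day 3, only the groups compared 26 and the 3 oil arrays with skeletal muscle transcripts left out 32. Leaving out oviduct array 1 of both treatments ended 25, and leaving out the 2 oviduct arrays with conflicting records ended 19. The second probe set ended 23 and kept 62, where genes with 1 probe set kept theirs. A pseudocount of 100, a filter on Present calls per group and the value table ended none. Leaving out each array in turn, 1290 calls were kept and 189 lost. DES oviduct (17 members called): 11 to 17 without 1 array, the fewest without DES oviduct array 2, 11 without oviduct array 1 of both treatments, 9 without the muscle arrays, and 11 without the 2 oviduct arrays with conflicting records, an alternative chosen after seeing the data. DES uterus (22): 18 to 23. DES vagina (11): 4 to 12, the fewest without DES vagina array 3, 6 with only the groups compared and 17 with the scan day block (16 with the replicate block, in which the arrays are paired by number). Oil oviduct against uterus (9): 4 to 10, 14 with quantile normalization, 4 with only the groups compared, 15 with the replicate block, 17 with the scan day block, 14 within the first day, 4 without oviduct array 1 of both treatments, 2 without the muscle arrays and 5 without the conflicting arrays. Oil uterus against vagina (9): 8 to 10, and 15 with each block. Oil oviduct against vagina (6): 4 to 7, 3 with only the groups compared, 14 with the replicate block, 15 with the scan day block, 12 within the first day, 3 without oviduct array 1 and 2 without the muscle arrays. DES effect, uterus minus oviduct (6): 3 to 8, the fewest without DES uterus array 2, 14 with each block, 12 within the first day, 2 without the muscle arrays and 3 without the conflicting arrays. Vagina minus uterus (3): 1 to 3, 5 with the replicate block, 6 with the scan day block, and 1 each with only the groups compared, without oviduct array 1, without the muscle arrays and with the second probe set. Vagina minus oviduct (4): 0 to 5, with 0 without DES vagina array 3 (12 at an unadjusted p below 0.05), 0 without oviduct array 1 (10), 0 without the muscle arrays (11) and 1 with only the groups compared. The blocks ended no call of the full fit. Where a lone array was left in a group, the spread of the other groups was applied to it. The cause of these changes was not tested, and the share of all genes called was not computed for the alternatives. Of the 38 members, 34 were Present on every array with calls. Lama1, on 9 of 16, and Mmp10, on 8, are limited by background.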
